A study of Mus musculus with 18 samples.

Results

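The Zfp genes are the mouse genes whose symbol is Zfp followed by a number, a naming class for zinc finger proteins. Of the 358 such rows in the deposited table, 142 had a mean of at least 5 TPM (an abundance per transcript length, scaled so that each library has the same total) over the 18 libraries, and these 142 are described here, out of 24493 genes in all. RNA was sequenced from pancreatic tumor cells of the C57BL/6 mouse lines 6694c2 and 6419c5, sorted out of untreated tumors implanted under the skin, by a marker that the labels do not give. In each line there were knockout clone A, knockout clone B (both Kdm3a-KO) and WT cells, with 3 libraries in each of the 6 groups. Each knockout group is 1 clone, so its 3 libraries measure that clone, and WT cells are not described as clonal in the labels. Nothing in the labels tells whether replicate libraries stem from different animals, so p-values measure only the spread between these libraries, which may be technical.

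Zinc finger proteins of the C2H2 type carry tandem fingers, each a short fold that holds a zinc ion with a pair of cysteines and a pair of histidines and reads a few bases of DNA. Many of them also carry a KRAB box, which recruits Trim28 and through it the methyltransferase Setdb1, so that trimethylated lysine 9 of histone H3 (H3K9me3) is laid down at retrotransposons and at other bound sites. KRAB zinc finger genes lie in chromosome clusters that are themselves covered by H3K9me3 in many cell types. Kdm3a is a demethylase that removes the mono- and dimethyl forms of the same lysine, and its knockout is the genotype set against WT within each line. No H3K9 methylation was measured in these libraries.

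Most of the members were of modest abundance. Mean TPM ran between 5.15 and 117, with a median of 12.7, and 50 members had 5 to 10 TPM, 59 had 10 to 20, 17 had 20 to 40 and 16 had 40 or more. Just inside the minimum were Zfp764 with a mean of 5.24 TPM and Zfp715 with 5.15, and just outside it were Zfp27 with 4.99 and Zfp462 with 4.95. In 24 members the mean of at least 1 group was under 5 TPM, and no member was listed at 0 in any library. The 5 most abundant members were Zfp36, which as tristetraprolin promotes decay of AU-rich mRNAs, with a mean of 117 TPM, Zfp706 with 96.7, Zfp207, a spindle protein that binds Bub3, with 92.4, the co-repressor Zfp703 with 75.2 and Zfp219 with 52.0.

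All 142 members could be placed in GENCODE M21 (build GRCm38, the same as mm10), on 19 chromosomes, and 34 of them lay on chromosome 7. In translated coding sequence, 131 members had at least 1 match to the C2H2 pattern, with a median of 8 matches over the 142 members and a highest of 32. The 11 members with no match included Zfp36, whose fingers are of another type, as well as Zfp395, Zfp414, Zfp608, Zfp703, Zfp704 and Zfp972. A KRAB A box was found in 41 members, which is 28.9% of them, against 75% of the 212 Zfp rows below 5 TPM that had a coding transcript. There were 22 clusters of 4 or more Zfp rows less than 500 kb apart, and 49 members lay in one. Shared sequence limits some values, because 21 members had over 10% of their 31-base words in transcripts of other genes, among them Zfp972 with 76.7%, Zfp764 with 47.9%, Zfp414 with 26.2%, Zfp865 with 20.02% and Zfp422 with 12.7%. How the reads of those genes were divided cannot be read from TPM, so their values are uncertain.

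The 250 bases before RefSeq's start are shown for 4 members that were called higher with the Kdm3a knockout in tests given further on. These 4 were also picked because their promoters differ widely in CG content. Zfp414 and Zfp691 were called in line 6694c2, Zfp651 in line 6419c5 and Zfp972 in both lines. The difference of Zfp651 was 0.95 in 6419c5 clone B and 0.01 in clone A, so its rise was that of clone B. The sequences are RefSeq's, build GRCm38.p6, written 5′ to 3′ with every CG dinucleotide in capitals. The promoter of Zfp414 lies at chr17:33628842-33629091 on the plus strand, that of Zfp691 at chr4:119174196-119174445 on the minus strand, that of Zfp972 at chr2:177925651-177925900 on the minus strand and that of Zfp651 at chr9:121759783-121760032 on the plus strand. The window of Zfp651 lies inside the gene as GENCODE M21 draws it, because that annotation starts the gene further upstream, at base 121759330 of chromosome 9.
Zfp414: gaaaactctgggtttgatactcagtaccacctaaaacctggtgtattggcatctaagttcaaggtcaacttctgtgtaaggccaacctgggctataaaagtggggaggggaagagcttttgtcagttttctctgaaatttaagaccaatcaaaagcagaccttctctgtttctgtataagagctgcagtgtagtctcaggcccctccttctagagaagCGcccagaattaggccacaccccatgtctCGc
Zfp691: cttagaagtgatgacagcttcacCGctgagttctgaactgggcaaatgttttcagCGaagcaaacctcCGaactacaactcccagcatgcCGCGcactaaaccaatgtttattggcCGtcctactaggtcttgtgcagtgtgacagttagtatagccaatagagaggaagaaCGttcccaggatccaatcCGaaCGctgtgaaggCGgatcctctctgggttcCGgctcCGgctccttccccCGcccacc
Zfp972: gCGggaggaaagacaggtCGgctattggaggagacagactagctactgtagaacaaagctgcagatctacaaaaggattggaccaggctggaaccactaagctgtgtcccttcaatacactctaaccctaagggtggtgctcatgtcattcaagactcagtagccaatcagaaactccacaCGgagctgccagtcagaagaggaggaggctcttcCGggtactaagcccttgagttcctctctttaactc
Zfp651: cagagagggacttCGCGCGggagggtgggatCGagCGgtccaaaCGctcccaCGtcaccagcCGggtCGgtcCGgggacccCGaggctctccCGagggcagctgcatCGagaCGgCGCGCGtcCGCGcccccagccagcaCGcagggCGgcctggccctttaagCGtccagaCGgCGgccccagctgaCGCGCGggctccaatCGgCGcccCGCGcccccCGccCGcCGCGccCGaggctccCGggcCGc
The promoter of Zfp414 held 2 CG dinucleotides, that of Zfp972 held 4, that of Zfp691 held 13 and that of Zfp651 held 38. Of the 142 members, 113 had a promoter in the RefSeq table, with a median of 14 CG dinucleotides, against 16 in the promoters of 10054 other tested genes. The GC box GGGCGG, searched on both strands, was found in 56.6% of the members' promoters and in 58.8% of the others. Zfp651 held 2 such matches and Zfp691 held 1. A match is a stretch of letters in this window and not a measured binding site.

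Kdm3a itself was measured first. It had 26.2, 26.4 and 29.8 TPM in 6694c2 clone A, 28.8, 30.2 and 25.2 TPM in clone B and 39.9, 38.9 and 67.6 TPM in 6694c2 WT. In line 6419c5 it had 21.6, 24.6 and 21.6 TPM in 6419c5 clone A, 12.3, 18.8 and 13.5 TPM in clone B and 38.2, 24.1 and 32.9 TPM in 6419c5 WT. The transcript was thus lower in the knockouts but not absent, and in 6419c5 clone A the highest library overlapped the lowest WT library. The difference was -0.75 in 6694c2 (adjusted p = 0.0091) and -0.75 in 6419c5 (adjusted p = 0.0185), and in 6419c5 clone A alone it was -0.45 (adjusted p = 0.299). Whether the deleted part of the gene is covered by these values is not given in the sources used here.

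Libraries of 1 group were not alike in the RNA of other cell types. The summed TPM of 10 macrophage genes lay between 3601 and 6749 in 6694c2 clone A, 448 and 3684 in clone B and 149.7 and 1841 in 6694c2 WT, and between 2506 and 8880.1 in 6419c5 clone A, 226 and 472 in clone B and 1313 and 8134 in 6419c5 WT. All 10 genes were detected in every group, and in RNA pooled from many cells fewer cells of a type and less RNA per cell cannot be told apart. The epithelial markers, 8 genes including Krt8, Krt18 and Krt19, were abundant in every library, at sums of 5628 to 12764 TPM. Their mean log2(TPM + 1) was 7.76 ± 0.18 in 6694c2 clone A, 7.71 ± 0.20 in clone B and 8.49 ± 0.11 in 6694c2 WT, and 9.29 ± 0.09 in 6419c5 clone A, 8.82 ± 0.08 in clone B and 9.56 ± 0.11 in 6419c5 WT (SD, n = 3 each). The mean was lower in each knockout clone than in WT of its line, a description with no test.

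Summed levels of other immune genes were higher in every 6694c2 knockout library than in 6694c2 WT. The summed TPM of the 8 T and NK cell genes found in the table was 17.6 to 67.9 in the 6 knockout libraries of 6694c2 and 1.90 to 6.30 in 6694c2 WT, where Gzma was at 0 in all libraries, and that of 8 neutrophil genes was 37.5 to 349.5 in the knockout libraries and 18.98 to 27.7 in WT, where Ly6g was at 0 in all libraries. Neither pair of groups overlapped. Fibroblast genes, 10 in number, summed to 733 to 1071 TPM in 6694c2 clone A, 111 to 884 TPM in clone B and 156 to 273 TPM in 6694c2 WT. Erythroid genes, 6 in number, went the other way without overlap. They summed to 121 to 165 TPM in 6694c2 clone A, 35.2 to 169 TPM in clone B and 292 to 746 TPM in 6694c2 WT. In 6419c5, T and NK cell genes summed to 12.6 to 20.4 TPM in clone A, 6.49 to 10.4 TPM in clone B and 2.72 to 7.17 TPM in WT, and neutrophil genes to 69.9 to 88.7, 13.3 to 26.7 and 42.1 to 71.8 TPM in the same order. Erythroid genes summed there to 253 to 400, 188 to 343 and 206 to 645 TPM in that order. The part of these cell types in the knockout differences of the Zfp genes was not tested, apart from the fits with the macrophage genes as a covariate. 

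The number of genes at 1 TPM or more was 12213 to 13590 per library. The row Mir6236 took between 6.04% and 17.4% of all TPM, which lowers the TPM of every other gene in that library. That share was 6.04% to 9.57% in the 6694c2 knockout libraries and 8.57% to 17.4% in 6694c2 WT, and 7.18% to 17.2% in the 6419c5 knockout libraries and 8.32% to 16.6% in 6419c5 WT. The fits without the 20 most abundant genes, given below, leave this row out. Depth is unknown because TPM hold no read numbers.

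The first question was how far the Zfp genes moved from WT in each knockout clone, compared with other genes of like abundance. Differences are given as knockout minus WT of log2(TPM + 1), a scale that understates changes of low genes. The comparison set was the 10379 other genes with at least 5 TPM, weighted to the members' numbers in the 4 abundance classes. In every clone the members were spread more narrowly than these genes. The interquartile range of the differences was 0.34 for the members and 0.48 for the other genes in 6694c2 clone A, and 0.34 against 0.41 in 6694c2 clone B. In 6419c5 clone A it was 0.29 against 0.35, and in 6419c5 clone B it was 0.36 against 0.47. The narrow range was not particular to the Zfp genes. In 65 genes of other zinc finger families (Zbtb, Zscan, Zkscan, Zc3h and Klf) with at least 5 TPM, it was 0.32 and 0.33 in 6694c2 clones A and B. In 6419c5 clones A and B it was 0.25 and 0.34, without weighting by abundance. The members are not replicates, so no test was made of these ranges.

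The tails differed more than the middle of the distributions. Standard deviations over the members were 0.32 in 6694c2 clone A, 0.32 in 6694c2 clone B, 0.22 in 6419c5 clone A and 0.30 in 6419c5 clone B, against 0.73, 0.59, 0.47 and 0.66 over the other genes in the same order. A difference beyond 1 in either direction, which is a 2-fold change on this scale, was seen in 2 members in 6694c2 clone A, 1 in 6694c2 clone B, 0 in 6419c5 clone A and 2 in 6419c5 clone B. That is 1.41%, 0.704%, 0% and 1.41% of the members, against 10.6%, 7.57%, 4.51% and 9.23% of the other genes. Beyond 0.5 lay 8.45%, 20.4%, 2.11% and 7.04% of the members, against 24.3%, 23.5%, 14.8% and 22.0% of the other genes. At that cut the shares were thus close in 6694c2 clone B. The median of the members stayed close to that of the other genes in each clone, 0.07 against 0.12 in 6694c2 clone A, 0.21 against 0.20 in 6694c2 clone B, 0.02 against 0.05 in 6419c5 clone A and 0.07 against -0.02 in 6419c5 clone B.

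**Figure D1:**
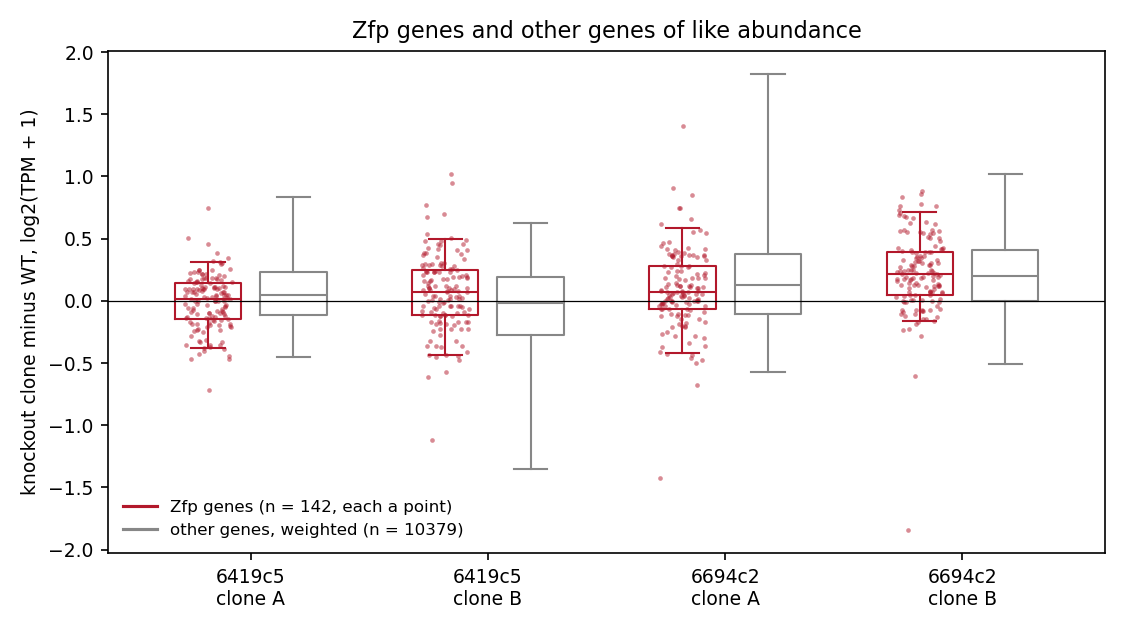
Knockout minus WT difference in log2(TPM + 1) for each of 4 clones; points are the 142 Zfp genes, and boxes give the quartiles with whiskers at the 5th and 95th percentiles, red for Zfp genes and grey for 10379 other genes weighted to the same abundance classes. The red boxes and whiskers are shorter than the grey ones in each clone, with a standard deviation of 0.32 against 0.73 in 6694c2 clone A.

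The narrow spread was not present in every abundance class. Among the 17 members with 20 to 40 TPM the interquartile range was 0.55 in 6694c2 clone A, against 0.42 in other genes of that class, and 0.46 against 0.37 in 6694c2 clone B. Among the 16 members with 40 TPM or more it was 0.39 against 0.35 in 6694c2 clone B. In the other 13 pairs of class and clone the members' range was the smaller one. Leaving out 6694c2 WT replicate 3 turned the order in 6694c2 clone B, where the range became 0.57 for the members and 0.54 for the other genes.

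Between libraries of the same genotype the order of the interquartile ranges was not the same. Each WT library was set against the mean of the other two of its line. The interquartile range of the members was 0.26, 0.71 and 0.91 for 6694c2 WT replicates 1, 2 and 3, against 0.33, 0.60 and 0.70 for the other genes. For 6419c5 WT replicates 1, 2 and 3 it was 0.60, 0.70 and 0.23, against 0.51, 0.52 and 0.36. By this range the Zfp genes were spread more widely around their own group than other genes in 4 of the 6 WT libraries. By standard deviation they were narrower in each of the 6. It was 0.23, 0.49 and 0.62 for 6694c2 WT replicates 1, 2 and 3, against 0.39, 0.63 and 0.69. For 6419c5 WT replicates 1, 2 and 3 it was 0.50, 0.48 and 0.21, against 0.61, 0.53 and 0.55.

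In each clone a smaller share of the members than of all genes passed the test. In 6694c2 clone A 12 members rose and 7 fell, which is 13.4% of the 142, where, of 13422 genes, 21.7% of all genes tested were called (14.7% higher and 7.01% lower). In 6694c2 clone B 5 rose and 2 fell, or 4.93%, where 14.5% of all genes tested were called (10.6% higher and 3.94% lower). In 6419c5 clone A 0 rose and 1 fell, or 0.704%, where 4.79% of all genes tested were called (3.14% higher and 1.65% lower). That member, Zfp740, is named here after its values were seen, with -0.33 (SE 0.09, adjusted p = 0.0483). In 6419c5 clone B 9 rose and 7 fell, or 11.3%, where 18.9% of all genes tested were called (7.97% higher and 11% lower). All adjusted p-values are from limma with Benjamini-Hochberg adjustment over all genes tested. The split between directions depended on scaling. With median-of-ratios scaling it became 6 higher and 17 lower in 6694c2 clone A, 2 and 6 in 6694c2 clone B and 13 and 5 in 6419c5 clone B, and with quantile normalization 6 and 21, 1 and 4, and 15 and 3. With the 20 most abundant genes removed it became 6 and 11 in 6694c2 clone A and 3 and 3 in 6694c2 clone B.

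In line 6694c2, the mean of both knockout clones against WT showed a small set of Zfp genes that moved. Of the 142 members, 12 rose and 5 fell, or 12%, where 20.4% of all genes tested were called (14.7% higher and 5.79% lower). Direction again depended on scaling, with 5 higher and 10 lower under median-of-ratios scaling, 3 and 15 under quantile normalization and 5 and 6 with the 20 most abundant genes removed. The median of all genes tested was 0.15 as deposited and -0.01, -0.05 and 0.05 under those scalings. Relative to the deposited median of 0.15, the falls were larger and the rises smaller than the values given below. The libraries did not overlap, with all 6 knockout libraries above all 3 WT libraries, in 11 members, where 13.2% of all genes tested did the same, and all 6 below in 3 members, where 4.89% did.

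The deepest fall was that of Zfp704, whose human counterpart is known as a transcriptional repressor (chr3:9427020-9610085, minus strand). It had 0.874, 0.458 and 0.453 TPM in 6694c2 clone A, 0.0802, 0.131 and 0.350 TPM in clone B and 2.33, 2.68 and 5.24 TPM in 6694c2 WT. Every knockout library was below every WT library, and the means were 0.595 ± 0.242 TPM in clone A, 0.187 ± 0.143 in clone B and 3.42 ± 1.59 in WT (SD, n = 3 each). The difference was -1.63 (SE 0.19, adjusted p = 2.17e-05). It was called under all 3 scalings and in each of 18 fits that left out 1 library. In line 6419c5 the same gene was far more abundant, with 21.7, 20.5 and 22.1 TPM in 6419c5 clone A, 21.8, 24.2 and 24.4 TPM in clone B and 23.4, 16.7 and 14.48 TPM in 6419c5 WT. There the knockout libraries fell within or just above the range of the WT libraries, and the difference was 0.31 (SE 0.19, adjusted p = 0.417).

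Zfp395, whose human counterpart is induced by hypoxia, also fell in 6694c2 (chr14:65358389-65398930, plus strand). It had 40.4, 38.2 and 35.9 TPM in 6694c2 clone A, 44.8, 45.5 and 42.9 TPM in clone B and 48.4, 60.97 and 54.04 TPM in 6694c2 WT. The groups did not overlap, and the difference was -0.39 (SE 0.08, adjusted p = 0.0024), called under all 3 scalings and in each leave-one-library-out fit. Zfp219, a partner of Sox9 in cartilage cells, had 51.98, 50.7 and 52.6 TPM in 6694c2 clone A, 63.9, 64.2 and 63.98 TPM in clone B and 69.02, 82.2 and 64.8 TPM in 6694c2 WT. Its difference was -0.31 (SE 0.08, adjusted p = 0.0173), and it was not called without 6694c2 WT replicate 2. Clone A alone gave -0.46 (adjusted p = 0.00377) and clone B alone -0.16 (adjusted p = 0.287). Zfp516, known for driving thermogenic genes in brown fat, fell by 0.26 on the log2 scale (SE 0.08, adjusted p = 0.029) and Zfp64 by 0.24 (SE 0.08, adjusted p = 0.0459). The calls of Zfp516 and Zfp64 held in 14 and 5 of the 18 leave-one-library-out fits, and clone A carried most of both falls, with -0.43 and -0.36 there and -0.10 and -0.13 in clone B. With the macrophage genes as a covariate neither was called (adjusted p = 0.122 for Zfp516 and 0.0545 for Zfp64).

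Of the rises in 6694c2, those of Zfp414, Zfp90 and Zfp972 were called as deposited and under all 3 scalings. Zfp414, whose CG-poor promoter is shown above (chr17:33629090-33631779, plus strand), had 31.5, 27.98 and 33.996 TPM in 6694c2 clone A, 30.6, 31.97 and 32.5 TPM in clone B and 19.8, 20.8 and 14.3 TPM in 6694c2 WT. All 6 knockout libraries were above all 3 WT libraries, and the difference was 0.76 (SE 0.11, adjusted p = 0.000181). Zfp90, a KRAB zinc finger protein (chr8:106415327-106426598, plus strand), had 20.8, 17.4 and 15.999 TPM in 6694c2 clone A, 15.4, 19.1 and 19.2 TPM in clone B and 12.6, 12.1 and 11.1 TPM in 6694c2 WT. Here too the groups did not overlap, and the difference was 0.55 (SE 0.10, adjusted p = 0.00185). Both were called in each of the 18 leave-one-library-out fits.

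Zfp691 rose most as deposited (chr4:119169513-119174195, minus strand). It had 8.41, 8.999 and 7.25 TPM in 6694c2 clone A, 6.12, 7.36 and 7.16 TPM in clone B and 4.18, 4.61 and 3.05 TPM in 6694c2 WT. The lowest knockout library was above the highest WT library, and the difference was 0.79 (SE 0.12, adjusted p = 0.000407), called in each leave-one-library-out fit but not under quantile normalization (adjusted p = 0.0505). Zfp672 had 11.7, 13.1 and 9.93 TPM in 6694c2 clone A, 9.08, 8.96 and 11.4 TPM in clone B and 7.01, 4.24 and 6.89 TPM in 6694c2 WT. It rose by 0.75 (SE 0.21, adjusted p = 0.0203), and the call was lost without 6694c2 WT replicate 2 and under quantile normalization. Zfp608, which has no match to the C2H2 pattern, rose by 0.38 (SE 0.09, adjusted p = 0.00962), with 13.7 to 16.5 TPM over the 6 knockout libraries against 10.9 to 11.9 TPM in WT. That call held in all 18 leave-one-library-out fits and under none of the 3 scalings.

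The other named rises in 6694c2 were smaller. Zfp110, known as a partner of the p75 neurotrophin receptor, rose by 0.44 (adjusted p = 0.0426), Zfp511 by 0.35 (adjusted p = 0.0309), the KRAB gene Zfp1 by 0.33 (adjusted p = 0.02) and Zfp821 by 0.30 (adjusted p = 0.0306). None of these 4 was called under any of the 3 scalings, and in leave-one-library-out fits they were called in 5, 13, 16 and 12 of 18. Zfp511 (adjusted p = 0.12) and Zfp821 (adjusted p = 0.11) were also not called with the macrophage genes as a covariate.

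**Figure D2:**
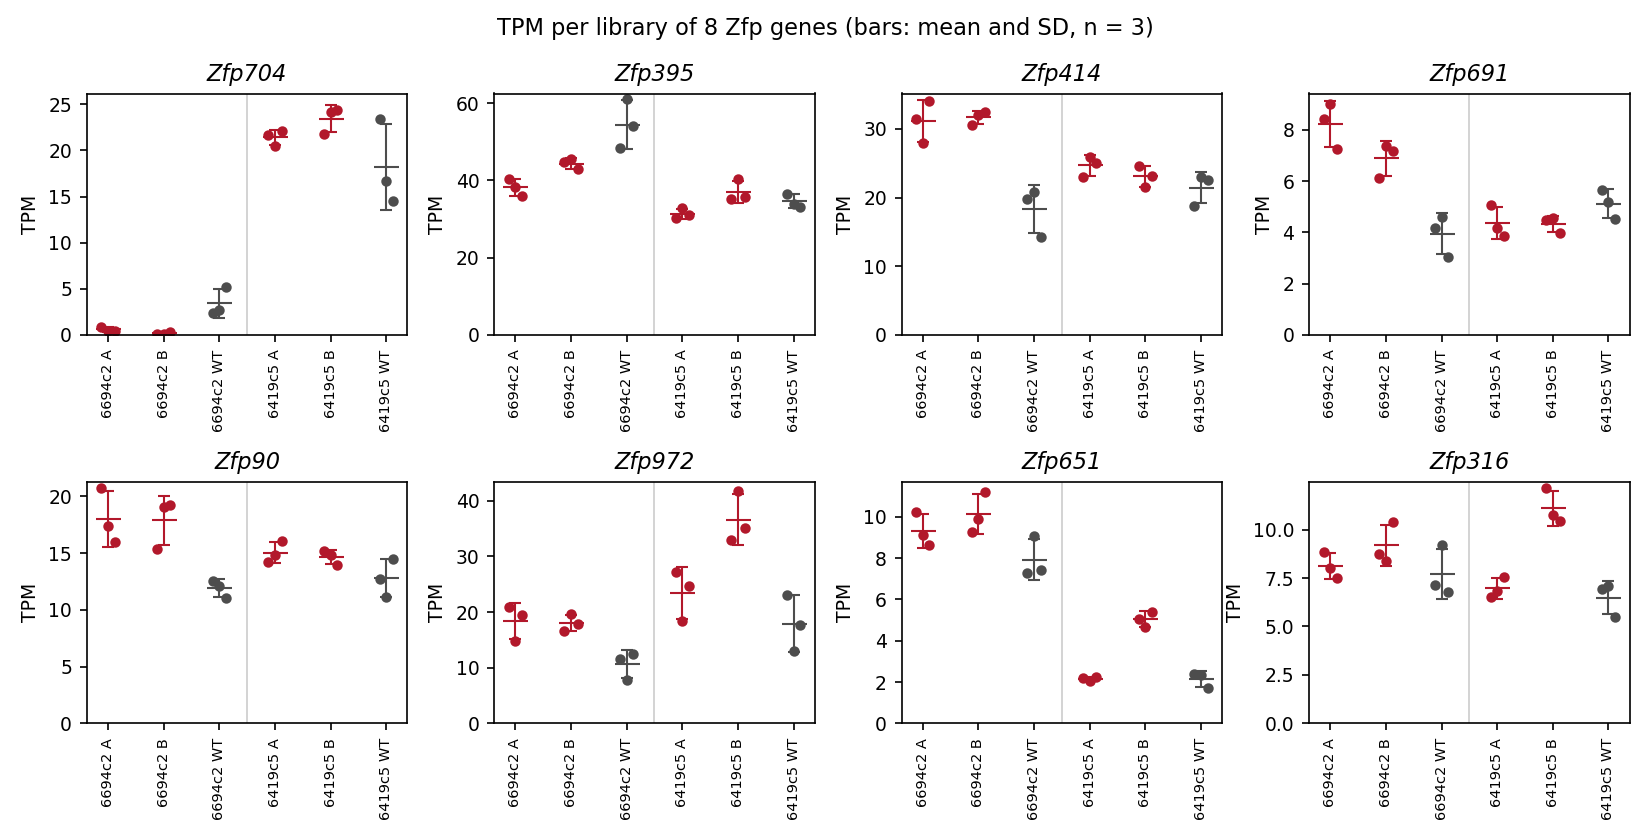
TPM of 8 Zfp genes in each of the 18 libraries, with knockout clones A and B in red left of WT in dark grey for each line, and the mean and SD (n = 3) drawn as bars. Zfp704 has 0.0802 to 0.874 TPM in 6694c2 knockout libraries, against 2.33 to 5.24 in 6694c2 WT, and Zfp651 and Zfp316 stand out in 6419c5 clone B.

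In line 6419c5 the mean of both clones against WT called 5 members, all higher, or 3.52%, where 7.38% of all genes tested were called (3.97% higher and 3.4% lower). All 6 knockout libraries lay above all 3 WT libraries in 4 members, where 4.6% of all genes tested did, and all 6 below in 0, where 2.6% did. Only 2 of the 5, Zfp651 and Zfp972, were called under all 3 scalings. None of the 5 calls held in every leave-one-library-out fit, and without 6419c5 WT replicate 3 none of them was called, while 2 other members were called lower. That library had the most macrophage RNA of the 6419c5 WT libraries, 8134 TPM, against 1313 and 2014 TPM in the other two. Its part in these calls was not tested beyond leaving it out.

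Zfp651, also known as Zbtb47 (chr9:121759330-121771742, plus strand), had 2.19, 2.07 and 2.24 TPM in 6419c5 clone A, 5.08, 4.67 and 5.41 TPM in clone B and 2.40, 2.34 and 1.72 TPM in 6419c5 WT. Clone B was above WT in every library and clone A was level with WT, so that the clone differences were 0.95 (adjusted p = 0.000115) in clone B and 0.01 (adjusted p = 0.974) in clone A. The mean of both was 0.48 (SE 0.11, adjusted p = 0.0123). Zfp972 (chr2:177903340-177925613, minus strand), whose transcript shares most of its sequence with other genes, had 27.3, 18.3 and 24.7 TPM in 6419c5 clone A, 32.9, 41.7 and 35.1 TPM in clone B and 23.1, 12.96 and 17.7 TPM in 6419c5 WT. Clone B was above every WT library and clone A overlapped WT, and the mean difference was 0.70 (SE 0.18, adjusted p = 0.0297).

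Zfp580 (chr7:5051538-5053723, plus strand) had 5.37, 4.32 and 5.79 TPM in 6419c5 clone A, 5.34, 3.62 and 5.68 TPM in clone B and 1.84, 3.59 and 2.72 TPM in 6419c5 WT. Both clones were above WT in every library, narrowly so in clone B replicate 2, and the mean difference was 0.71 (SE 0.20, adjusted p = 0.0464). Zfp316, a KRAB zinc finger gene, had 6.53, 6.82 and 7.55 TPM in 6419c5 clone A, 12.1, 10.7 and 10.4 TPM in clone B and 6.91, 7.07 and 5.497 TPM in 6419c5 WT. The mean difference was 0.39 (SE 0.11, adjusted p = 0.0489), and clone B alone gave 0.69 where clone A gave 0.09. Zfp865 rose by 0.29 (SE 0.08, adjusted p = 0.0281), with 0.46 in clone B and 0.12 in clone A. Of the 5 rises, 4 were thus larger in clone B than in clone A, while for Zfp580 clone A gave 0.75 and clone B 0.67. The clones of a line share the same WT libraries, and no test was made between clones.

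Averaged over both lines, 10 members rose and 3 fell, or 9.15%, where 18.4% of all genes tested were called (12.5% higher and 5.89% lower). This split became 6 and 6 under median-of-ratios scaling, 5 and 7 under quantile normalization and 6 and 3 with the 20 most abundant genes removed. Zfp972 was the one member called in both lines taken alone. In 6694c2 it had 20.8, 14.8 and 19.5 TPM in 6694c2 clone A, 16.7, 19.6 and 17.9 TPM in clone B and 11.6, 7.82 and 12.5 TPM in 6694c2 WT, with no overlap. Its difference was 0.74 (SE 0.18, adjusted p = 0.0113) there, not called without 6694c2 WT replicate 2, and 0.72 (SE 0.13, adjusted p = 0.00129) over both lines. Zfp189 rose over both lines by 0.52 (SE 0.14, adjusted p = 0.0218), with 0.51 in 6694c2 and 0.53 in 6419c5, although neither line alone passed the test. Its call was lost without 6694c2 WT replicate 2 or 6419c5 WT replicate 2.

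The other rises over both lines were those of Zfp414 (0.46, adjusted p = 0.000729), Zfp90 (0.38, adjusted p = 0.0023), Zfp651 (0.37, adjusted p = 0.00334), Zfp110 (0.37, adjusted p = 0.0211), Zfp523, a relative of Zfp143 (0.36, adjusted p = 0.0262), Zfp691 (0.30, adjusted p = 0.0273), Zfp608 (0.28, adjusted p = 0.00788) and Zfp316 (0.27, adjusted p = 0.0284). Of all 10 rises, those of Zfp189, Zfp414, Zfp90 and Zfp972 were called under all 3 scalings. The 3 falls, Zfp704 (-0.66, adjusted p = 0.00281), Zfp553 (-0.24, adjusted p = 0.0249) and Zfp395 (-0.21, adjusted p = 0.0164), were called under each of them. Leaving out 6694c2 WT replicate 3 ended the calls of Zfp316, Zfp523 and Zfp691 over both lines, 6694c2 WT replicate 2 those of Zfp110 and Zfp553, and 6694c2 WT replicate 1 those of Zfp110 and Zfp316. Without 6419c5 WT replicate 2 Zfp110, Zfp553 and Zfp691 were not called, without 6419c5 WT replicate 1 Zfp523 and Zfp553, and without 6419c5 WT replicate 3 Zfp316 and Zfp691. The fall of Zfp704 over both lines is an average of -1.63 in 6694c2 and 0.31 in 6419c5, and does not describe either line. Nor does the rise of Zfp691, an average of 0.79 in 6694c2 and -0.19 in 6419c5. Zfp414 gave 0.76 and 0.15 and Zfp395 gave -0.39 and -0.02 in the same order. In each of these genes the difference between the lines was itself called, as given next.

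Whether the knockout acted differently in the lines was tested as the 6694c2 effect minus the 6419c5 effect. Each effect is a mean over the 2 clones of a line, and the spread between clones is not in the p-values. The difference was called in 7 members, 3 higher and 4 lower, or 4.93%, where 8.71% of all genes tested were called (5.78% higher and 2.93% lower). Under median-of-ratios scaling the split was 1 and 7, under quantile normalization 0 and 7 and with the 20 most abundant genes removed 1 and 5. Zfp704 differed most, by -1.95 (SE 0.26, adjusted p = 0.000437), followed among the lower ones by Zfp516 (-0.51, adjusted p = 0.0119), Zfp865 (-0.40, adjusted p = 0.0324) and Zfp395 (-0.37, adjusted p = 0.0466). The higher ones were Zfp691 (0.99, adjusted p = 0.0031), Zfp414 (0.61, adjusted p = 0.0231) and Zfp362 (0.55, adjusted p = 0.0234). Zfp516 had 20.99 to 28.96 TPM in 6694c2 knockout libraries against 27.9 to 31.96 in 6694c2 WT, and 26.4 to 36.3 in 6419c5 knockout libraries against 23.4 to 28.3 in 6419c5 WT. Its differences were -0.43 and -0.10 in 6694c2 clones A and B and 0.10 and 0.39 in 6419c5 clones A and B. In the same order Zfp865 gave -0.21, -0.002, 0.12 and 0.46, so both genes were uneven between clones. Zfp704 gave -1.42, -1.84, 0.25 and 0.37, and Zfp691 gave 0.91, 0.68, -0.19 and -0.20. The 4 lower differences were called under all 3 scalings, and none of the 3 higher ones was called under all of them. With the macrophage genes as a covariate Zfp516 (adjusted p = 0.0584), Zfp395 (0.0773), Zfp362 (0.101) and Zfp414 (0.103) were not called.

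**Figure D3:**
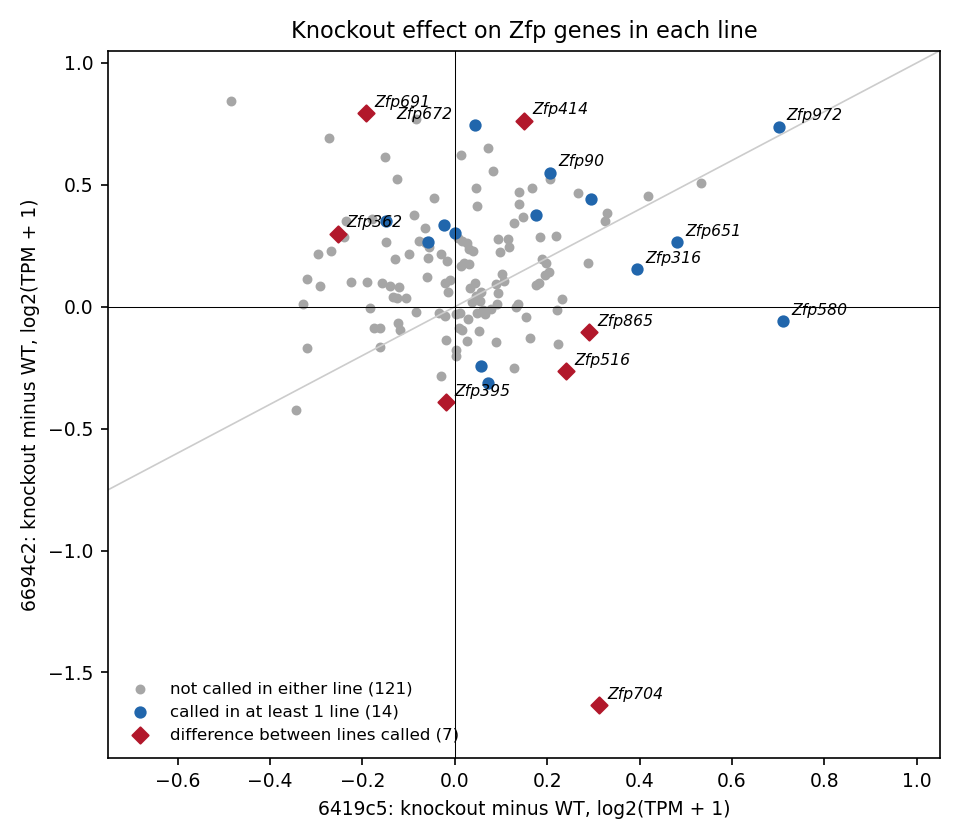
Knockout minus WT difference in log2(TPM + 1) of the 142 Zfp genes, in 6694c2 on the vertical and in 6419c5 on the horizontal axis; the grey diagonal marks equal effects. Red diamonds are the 7 genes with a called difference between lines, blue points the other 14 called in at least 1 line, and Zfp972 is the one gene called in both.

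Members with a KRAB box were set beside the other members, as a description with no test. In 6694c2 the median difference of the 41 KRAB members was 0.29, against 0.10 in the 101 members without one, 0.15 in all genes tested and 0.19 in other genes weighted to the abundance of the KRAB members. Of the KRAB members, 29 lay above the median of all genes, 4 of the 41 rose and 0 fell, where 14.7% of all genes tested were called higher and 5.79% lower, so the share called higher was below that of all genes. The 4 were Zfp90, Zfp110, Zfp972 and Zfp1. In clone A the KRAB median was 0.23 and in clone B it was 0.41, against all-gene medians of 0.11 and 0.18. In 6419c5 the KRAB median was 0.01 and the median without a KRAB box 0.03, with 2 KRAB members called higher, Zfp316 and Zfp972, where 3.97% of all genes tested were. The clones of 6419c5 went opposite ways. The KRAB median was -0.08 in clone A, where all genes had 0.05, and 0.10 in clone B, where all genes had -0.003. Of the 41 KRAB members, 14 lay above the all-gene median in clone A and 29 in clone B.

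The size of the KRAB shift in 6694c2 changed with single WT libraries. Without 6694c2 WT replicate 3 the KRAB median was 0.53, where all genes had 0.18, and 11 of the 41 KRAB members were called higher, as were 2026 of the 13422 genes tested. Without 6694c2 WT replicate 2 the median was 0.12, where all genes had 0.10, and 1 was called higher, as were 1382 of all genes. Under median-of-ratios scaling the KRAB median was 0.13, where all genes had -0.01, and under quantile normalization 0.02, where all genes had -0.05. Relative to all genes the KRAB median was thus 0.14 higher as deposited, 0.14 under median-of-ratios scaling and 0.07 under quantile normalization. KRAB members varied more between libraries of a group than genes of like abundance, with a median residual standard deviation of 0.29, against 0.24. Members without a KRAB box had 0.15, against 0.21.

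The median of the KRAB members shifted from library to library within a group. Their median deviation from the group mean was -0.08, -0.38 and 0.43 in 6694c2 WT replicates 1, 2 and 3 and 0.38, -0.35 and -0.05 in 6419c5 WT replicates 1, 2 and 3. In 6419c5 clone B it was -0.16, 0.31 and -0.15. The 10379 other genes stayed within 0.10 of their group mean by the same measure in every library. They were not weighted here to the abundance of the KRAB members, whose median was 8.94 TPM. In 4 of the 6 groups the library with the least macrophage RNA was the one highest in KRAB members, and in 5 of 6 the library highest in Kdm3a was. With the macrophage genes' mean as a covariate the KRAB median in 6694c2 became 0.57, where all genes had 0.18, with 15 KRAB members called higher and 1 lower, as were 2460 and 767 of all genes. The part of macrophage RNA and of Kdm3a level in these shifts was not tested.

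**Figure D4:**
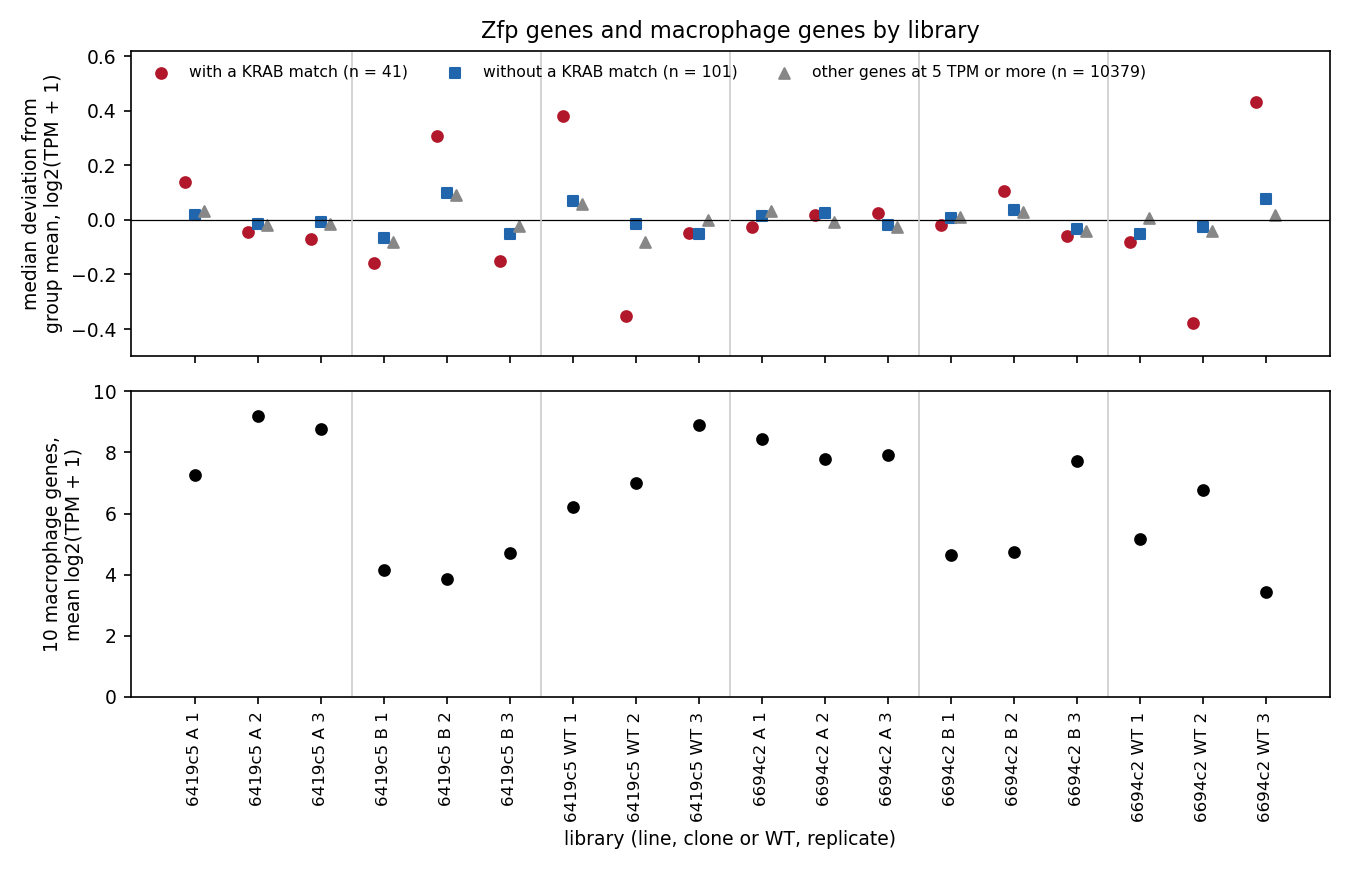
Top, median deviation from the group mean in log2(TPM + 1) for members with a KRAB match (red), members without (blue) and other genes (grey, not weighted by abundance) in each of 18 libraries. Bottom, mean log2(TPM + 1) of 10 macrophage genes in the same libraries. The red points range over 0.81 in 6694c2 WT and 0.73 in 6419c5 WT, against 0.05 in 6694c2 clone A, and the library highest in red has the lowest macrophage value in 4 of 6 groups.

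Several Zfp genes with known roles did not pass the test of both clones against WT in either line. Zfp57, a KRAB protein that keeps imprinted genes methylated, had 28.5 to 55.96 TPM in 6694c2 knockouts against 34.8 to 40.1 in WT, and 24.6 to 50.5 in 6419c5 knockouts against 28.9 to 31.7 in WT. Its differences were 0.01 (SE 0.15, adjusted p = 0.966) in 6694c2 and 0.09 (SE 0.15, adjusted p = 0.842) in 6419c5. Zfp809, a KRAB protein that silences murine leukemia viruses, gave 0.04 (SE 0.24, adjusted p = 0.929) in 6694c2 and -0.13 (SE 0.24, adjusted p = 0.872) in 6419c5. Zfp644, a partner of the H3K9 methyltransferases Ehmt1 and Ehmt2, gave 0.24 (SE 0.28, adjusted p = 0.591) and 0.03 (SE 0.28, adjusted p = 0.983) in the same order.

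The promoter-binding factors Zfp143, Zfp148 and Zfp281 gave 0.28, -0.10 and 0.10 in 6694c2 and 0.18, 0.05 and 0.18 in 6419c5, with adjusted p of at least 0.211. Zfp91, a ubiquitin ligase of NF-κB signalling, gave 0.20 and -0.06, Zfp207 gave 0.27 and -0.15, and Zfp703 gave -0.10 and 0.02. With standard errors between 0.09 for Zfp703 and 0.28 for Zfp644, a missed threshold here does not show that the genes were alike in knockout and WT. Zfp36 had 311, 122 and 136 TPM in 6694c2 clone A, 70.8, 69.9 and 97.5 TPM in clone B and 63.96, 78.3 and 53.8 TPM in 6694c2 WT, and 94.2, 229.8 and 158 TPM in 6419c5 clone A, 56.9, 73.2 and 56.98 TPM in clone B and 96.4, 118 and 219 TPM in 6419c5 WT. Its libraries ranged over 53.8 to 311 TPM, and its difference was 0.84 (SE 0.32, adjusted p = 0.0793) in 6694c2 and -0.49 (SE 0.32, adjusted p = 0.483) in 6419c5. In 6694c2 clone A alone Zfp36 rose by 1.41 (adjusted p = 0.0154), the largest rise of the 142 members in that clone. The 6694c2 clone A replicate 1 library, which held the highest Zfp36, also held the most macrophage RNA of its line, 6749 TPM, and the part of the one in the other was not tested.

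More members were called between the lines than between knockout and WT. Between 6694c2 WT and 6419c5 WT 20 members were higher and 23 lower, or 30.3%, where 46.3% of all genes tested were called (14.1% higher and 32.2% lower). This split became 33 and 7 under median-of-ratios scaling, 41 and 4 under quantile normalization and 24 and 13 with the 20 most abundant genes removed, and the all-gene median as deposited was -0.22. Zfp651 was the most raised, by 1.504 (SE 0.12, adjusted p = 2.5e-07), with 7.30, 9.08 and 7.41 TPM in 6694c2 WT and 2.40, 2.34 and 1.72 TPM in 6419c5 WT. The mean of at least 5 TPM admitted Zfp651 mainly through 6694c2, and Zfp580 likewise, with 2.72 TPM on average in 6419c5 WT, so their place at the top was favoured by the way members were chosen. Zfp580 followed with 1.48 (SE 0.23, adjusted p = 0.000118) and Zfp239, also called Mok2, with 1.47 (SE 0.21, adjusted p = 4.98e-05). Zfp746, a repressor known as Paris, was higher by 0.87 (adjusted p = 4.71e-06) and Zfp219 by 0.83 (adjusted p = 7.5e-06).

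Lower in 6694c2 WT was Zfp704, at -2.15 (SE 0.22, adjusted p = 1.57e-06). It is a member through 6419c5 alone, since no 6694c2 group averaged 5 TPM, so the choice of members favours a difference between the lines. Also lower were Zfp36 at -1.06 (adjusted p = 0.0315), Zfp672 at -1.01 (adjusted p = 0.00289), Zfp422 at -0.71 (adjusted p = 0.0112) and Zfp706 at -0.70 (adjusted p = 0.000439). The call of Zfp36 was lost under median-of-ratios scaling and quantile normalization and that of Zfp422 under quantile normalization, and both were lost with the macrophage genes as a covariate (adjusted p = 0.308 and 0.0747). Leaving out 6419c5 WT replicate 3, 6694c2 WT replicate 1 or 6694c2 WT replicate 3 ended the call of Zfp36, and leaving out 6419c5 WT replicate 1 or 3 that of Zfp422. The line difference in Zfp704, 2.33, 2.68 and 5.24 TPM in 6694c2 WT against 23.4, 16.7 and 14.48 TPM in 6419c5 WT, stood beside its knockout difference of -1.63 within 6694c2.

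One cluster, picked after its values were seen and so given no test of its own, held mostly genes that were higher in 6694c2 WT. It spans chr6:47819266-48623227 and holds 10 Zfp rows, of which the 4 members Zfp282, Zfp212, Zfp777 and Zfp746 were all higher than in 6419c5 WT, by 0.46, 0.59, 0.67 and 0.87. Of all 12 tested genes inside the interval 7 were called higher and 0 lower, where 14.1% of all genes tested were called higher and 32.2% lower. Their median was 0.48, where the median of all genes was -0.22. The largest difference in the cluster was that of Repin1, another zinc finger gene, with 2.89, and Zfp956 and Zfp467 lay below 0. None of the 4 members passed the knockout test in either line, with differences between -0.14 for Zfp282 and 0.14 for Zfp746 in 6694c2. The cluster with the most members, chr7:127233061-127885996, held 8 of its 10 Zfp rows as members. Of these, 0 were called in 6694c2 and 0 in 6419c5, where 20.4% and 7.38% of all genes tested were called. In 6419c5 clone B alone 2 were called, where 18.9% of all genes tested were. Both were lower, Zfp768 by -0.57 and Zfp553 by -0.47, and the median of the 8 members there was -0.34. Over both lines 1 was called, Zfp553, where 18.4% of all genes tested were.

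**Figure D5:**
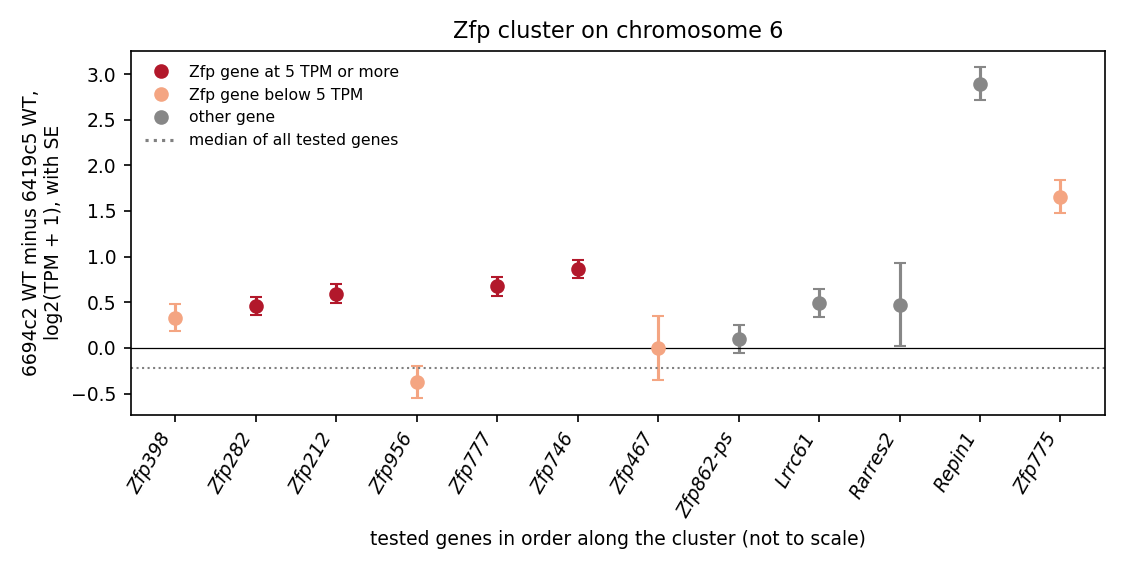
Difference 6694c2 WT minus 6419c5 WT in log2(TPM + 1), with its standard error, for the 12 tested genes of the chromosome 6 Zfp cluster in their order along the chromosome; the dotted line is the median of all tested genes. The 4 members (dark red) lie between 0.46 and 0.87, all above that line.

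The machinery through which KRAB zinc fingers act was called about as often as all genes in 6694c2. Of 25 tested genes of it, 2 rose and 3 fell in 6694c2, 0 and 0 in 6419c5 and 1 and 1 over both lines, and their median difference was 0.08 in 6694c2, where all genes had 0.15, and -0.03 in 6419c5, where all genes had 0.01. The called share was 0% in 6419c5, where 7.38% of all genes tested were called, and 8% over both lines, where 18.4% were. In 6694c2 it was 20%, where 20.4% of all genes tested were called, and in 6694c2 clone A 28%, where 21.7% were. In the mean of both clones the 3 falls were Chd3 (-0.48, adjusted p = 0.00119), Chd4 (-0.29, adjusted p = 0.0109), both remodelling enzymes of the NuRD complex, and the DNA methyltransferase Dnmt3a (-0.36, adjusted p = 0.0299), and the rises were Trim24 (0.71, adjusted p = 0.0139) and Hdac1 (0.35, adjusted p = 0.00932). Trim28, the partner of the KRAB box, was abundant at a mean of 198 TPM, and its differences were -0.13 (SE 0.07, adjusted p = 0.171) in 6694c2 and 0.11 (SE 0.07, adjusted p = 0.413) in 6419c5. Setdb1 gave 0.08 (SE 0.09, adjusted p = 0.559) in 6694c2 and 0.06 (SE 0.09, adjusted p = 0.823) in 6419c5.

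Of 19 tested H3K9 methyltransferases and demethylases, 1 rose and 2 fell in 6694c2, 3 rose and 1 fell in 6419c5 and 2 rose and 1 fell over both lines, where 20.4%, 7.38% and 18.4% of all genes tested were called. Kdm3a itself is among the falls in each. The demethylase Kdm4a rose in both, by 0.23 (SE 0.06, adjusted p = 0.0147) in 6694c2 and 0.24 (SE 0.06, adjusted p = 0.0244) in 6419c5, and its relative Kdm4b by 0.39 (SE 0.09, adjusted p = 0.0189) in 6419c5. The methyltransferase Ehmt2 rose by 0.27 (SE 0.07, adjusted p = 0.0256) in 6419c5, and the demethylase Phf2 fell by 0.39 on the log2 scale in 6694c2 (adjusted p = 0.014). Beside these, 79 tested genes of other zinc finger families (Zbtb, Zscan, Zkscan, Zc3h and Klf) gave 3 rises and 3 falls in 6694c2, 2 and 2 in 6419c5 and 7 and 5 over both lines, to be read against the same shares of all genes. Of 37 Zbtb genes, 3 rose and 0 fell in 6694c2, and of 11 Klf genes 0 rose and 3 fell, where 14.7% of all genes tested were called higher and 5.79% lower.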

How the data were processed

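Total RNA of 18 libraries was sequenced. The values are TPM, which the authors made with Salmon on mm10, per the submitters' processing notes; its version, the annotation and any batch step are not given in the sources used here, though the table's name mentions a batch. Clones carry letters in the table and numbers in the titles; A was taken as 1. From the deposited TPM, log2(TPM + 1) of the 13422 genes averaging 1 TPM or more was fitted with limma 3.58.1 (R 4.3.3): 6 group means, 12 residual degrees of freedom, mean-variance trend, Benjamini-Hochberg adjustment, called under 0.05. Members, lists and tests were chosen with earlier results of these data known. Named were the called members (at most 10 in each direction) of the knockout contrasts, 12 preset symbols, the 5 most abundant, those around the minimum and up to 5 each way between WT groups. RefSeq proteins were not used here; GENCODE M21 coding sequences were translated instead: a KRAB box needed 20 of 40 residues identical to a consensus, a finger C-x2-C-x12-H-x3-5-H. Spread in other genes was weighted over the abundance classes. On simulated data, 2-fold changes were recovered at 87% in 6694c2, 82% in 6419c5 and 95% over both lines. The simulated noise was normal and independent between genes and libraries. Genes with at least 5 TPM were changed equally in all knockout clones. Shifts shared by many genes of a library and differences between clones were not simulated, so these rates do not give the power in the real data. Alternatives were other pseudocounts, filters, scalings, covariates, a replicate block and leaving out libraries. Same-numbered libraries did not deviate together in every pair. The labels do not tell whether the numbers pair the samples, and the main fit did not pair them.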

Additional observations from a re-analysis of the deposited data

Results flagged for a closer look

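The mean knockout effect of the clones differed between the lines, by the test of the difference itself (limma, adjusted p under 0.05), in 7 Zfp genes. That test measures the spread between libraries of a group and not the spread between clones. The 6694c2 effect minus the 6419c5 effect in log2(TPM + 1) was -1.95 for Zfp704, -0.51 for Zfp516, -0.40 for Zfp865 and -0.37 for Zfp395. It was 0.55 for Zfp362, 0.61 for Zfp414 and 0.99 for Zfp691. For Zfp362 the knockouts had 27.6 to 31.3 TPM in 6694c2, against 22.6 to 25.03 in 6694c2 WT, and 8.22 to 11.9 in 6419c5, against 11.7 to 14.1 in 6419c5 WT. Zfp704, Zfp516 and Zfp691 were called in all 18 fits that left out 1 library. Zfp395 was called in 2 of them, Zfp865 in 7, and Zfp362 and Zfp414 in 16, both being lost without 6419c5 WT replicate 2 or 3. With the macrophage genes as a covariate, Zfp704, Zfp691 and Zfp865 were still called.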

How the results depend on the processing

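No called value of a named member changed sign under the alternatives run. Over members and alternatives, 240 values lost the call and 1468 kept it. The numbers of members called moved by over 1.5 times as follows. In 6694c2, removing the 20 most abundant genes gave 11, the macrophage covariate 34, leaving out the 3 libraries that stand apart 10 and the replicate block 10, against 17; clone B alone gave 23 with the macrophage covariate, against 7. In 6419c5, no filter on low values gave 3, median-of-ratios scaling 2, quantile normalization 2, removing the 20 most abundant genes 2, leaving out the libraries that stand apart 2, the macrophage covariate 9 and the replicate block 1, against 5. Clone A alone gave 0 in place of 1 with the replicate block, without the mean-variance trend and without the libraries that stand apart. Over both lines the macrophage covariate gave 20 against 13. The difference between lines gave 13 with that covariate and 3 without the libraries that stand apart, against 7. Between WT groups the replicate block gave 20, against 43. The libraries that stand apart are 6694c2 clone A replicate 1, 6694c2 clone B replicate 3 and 6419c5 WT replicate 3. The cause of these moves was not tested.

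Leaving out 1 library gave 11 to 20 calls in 6694c2 clone A, 4 to 24 in clone B, 0 to 1 in 6419c5 clone A and 9 to 23 in clone B. It gave 9 to 25 in 6694c2, 1 to 6 in 6419c5, 9 to 17 over both lines, 4 to 8 for the difference between lines and 35 to 47 between WT groups. The most in 6694c2 and in its clone B came without 6694c2 WT replicate 3, and the fewest without 6694c2 WT replicate 2, which clone B replicate 1 equalled in clone B. The 6694c2 count was 10 without clone B replicate 3 and 11 without clone A replicate 3, clone B replicate 1 or WT replicate 1, and clone B had 13 and 11 without 6419c5 WT replicates 1 and 2. In 6694c2 clone A 12 and 11 were called without its replicates 1 and 3, and in 6419c5 clone B 9 without its replicate 1. The 6419c5 count was 1 to 3 without any of the 9 libraries of that line, and the difference between lines gave 4 without 6419c5 WT replicate 3. Spread ranges were 0.33 to 0.51 in 6694c2 clone A, 0.26 to 0.57 in clone B, 0.21 to 0.41 in 6419c5 clone A and 0.33 to 0.47 in clone B. A pseudocount of 5 TPM gave spreads of 0.26 in both 6694c2 clones, and leaving out the libraries that stand apart gave 0.42 in clone B. Correlations of same-numbered libraries, as deviations from their group means, ran from -0.38 to 0.48. With 3 libraries per group they cannot settle whether same-numbered libraries share a source, and the labels name none for the replicate block. TPM give no depth, so no counting error can be set beside low values such as those of Zfp704.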
